A study of Mus musculus with 6 samples.

Results

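The 100 kb stretches of the mouse autosomes that hold the most GATC sites lay mostly in lamina-associated domains (LADs) in 3 maps of mouse embryonic fibroblasts (MEFs). GATC is the sequence methylated by the bacterial enzyme Dam, so the density of these sites sets how finely a DamID map can be read. The fragments between neighbouring GATC sites were counted by their midpoint in 100 kb bins of chromosomes 1 to 19. Of the 23817 bins that fragments covered over 90% or more of their length, the 10% with the highest count were taken, bins tied at the threshold included. This gave 2413 GATC-rich bins with at least 285 fragments each, against 21404 other bins. The choice used neither the lamina signal nor the LAD lists.

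All cells were MEFs of wild type genotype from the C57BL/6 strain, infected with lentivirus carrying an shRNA, selected with puromycin and then transduced with a Dam construct. The LmnA RNAi map set Dam-LmnB1 against Dam alone in cells given shRNA to LmnA, and the LmnC RNAi map set Dam-LmnB1 against Dam alone in cells given shRNA to LmnC. The LmnB1 RNAi map set Dam-LmnA against Dam alone, and its target is given by the sample descriptions, since the treatment text names shRNA to LmnA or LmnC. Each map rests on 1 fusion and 1 Dam-only library, with no replicate, so no test across replicates was possible and no p-value is given. Differences from the LmnB1 RNAi map join the depleted lamin and the Dam fusion, which cannot be told apart. Neither RNA nor protein was measured, so depletion of each lamin and the identity of the cells were not checked here, and no map of cells without shRNA was used.

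Lamins are filament proteins that line the inner face of the nuclear envelope. The Lmna gene gives lamins A and C by splicing, and Lmnb1 encodes lamin B1. LADs are long stretches of chromatin that touch this lining in many cells. They are known to be poor in genes, rich in A and T, largely silent, and rich in LINE-1 elements, the most abundant retrotransposons of the mouse genome. In DamID a lamin fused to Dam methylates GATC sites near the lamina, and Dam alone measures how accessible each site is. Signal is averaged over the cell population, so contact in fewer cells and weaker contact in each cell cannot be told apart.

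GATC-rich bins held 285 to 422 fragments, with a median of 299, against 162 to 284 with a median of 244 in other bins. Their fragments were shorter, with a median length of 205 bp against 270 bp, and 16.7% of them were under 50 bp, against 12.9%. At the threshold, 103 bins with 285 fragments averaged a log2 ratio of 1.53 after LmnA RNAi, 0.70 with LmnC RNAi and 1.08 with LmnB1 RNAi. The 121 bins with 284 fragments, just outside, averaged 1.42, 0.60 and 0.98 in the same order of maps. Values on both sides of the threshold were thus close.

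Part of the extra fragments of these bins had a repetitive layout. Some orders of neighbouring fragment lengths came back many times across the autosomes. A chain of 8 neighbours with lengths of 50, 147, 505, 145, 246, 97, 122 and 38 bp, spanning 1371 bp, occurred 5416 times. It ran in this order along the chromosome 2689 times and in the opposite order 2727 times. GATC-rich bins held 6.29 copies of it per Mb, against 1.83 per Mb in other bins. A longer chain of 12 neighbours, spanning 1693 bp, occurred 3575 times, at 3.96 copies per Mb in GATC-rich bins and 1.23 in other bins. The same arrangement of GATC sites was thus repeated at many places and in both orientations. The family of sequence behind each chain was not identified, because no mm9 sequence was used here.

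A fragment was counted as recurrent when it lay in a run of 3 neighbours whose ordered lengths, read from either side, occurred at least 100 times. There were 502 such runs of lengths. Recurrent fragments made up 18.9% of the fragments of GATC-rich bins, against 6.38% in other bins and 2.09% in the 2379 bins poorest in GATC sites. Per 100 kb of fragment length, GATC-rich bins held 57.9 recurrent fragments, against 15.6 in other bins. They held 249 fragments outside such chains, against 229 in other bins. With this cutoff, the larger part of their excess in fragments per length was recurrent. The part called recurrent depends on the cutoff. With at least 1000 occurrences it was 13.1% of the fragments of GATC-rich bins, against 4.46% in other bins. The recurrent part was then no longer the larger part of the excess. Chains also take up length. Per 100 kb of length outside chains (cutoff of 100), GATC-rich bins averaged 274 other fragments, against 236 in other bins. The share of recurrent fragments varied widely among GATC-rich bins, from 0% to 52.0% with a median of 18.5%.

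GATC-rich bins were found on every autosome and were most frequent on chromosome 7. Chromosome 7 held 302 of them, or 21.5% of its bins, and the next highest share was 12.4% on chromosome 4. The lowest shares were 6.86% on chromosome 16 and 6.94% on chromosome 12. On chromosome 7 they crowded at the centromere-proximal end, where 67.3% of the bins from 10 to 20 Mb were GATC-rich, against 1.01% from 70 to 80 Mb. Over all autosomes, 14.5% of GATC-rich bins lay within 10 Mb of the first covered base, against 7.19% of other bins. Within 10 Mb of the last covered base the shares were 4.81% and 8.21%.

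Many GATC-rich bins adjoined each other. They formed 1572 runs, of which 1151 were single bins, and 52.3% of GATC-rich bins had a GATC-rich neighbour. Runs of at least 5 bins numbered 50 and held 356 bins. The 2 longest runs and the fourth longest lay on chromosome 7. The longest covered 24 bins from 22500001 to 24900000 (mm9), all of it in LADs after LmnA and LmnC RNAi and 98.2% of it after LmnB1 RNAi. The log2 ratio of this run averaged 2.61 after LmnA RNAi, with 1.76 for LmnC RNAi and 1.78 for LmnB1 RNAi. The second, of 19 bins, ran from 17500001 to 19400000, with LAD shares of 90.1%, 91.7% and 91.98% and log2 ratios of 2.20, 1.33 and 1.32 in the same order of maps. The third ran over 17 bins of chromosome 5 from 94600001 to 96300000, lay wholly in LADs of all maps and had the highest signal of these 3 runs, at 3.01, 2.48 and 2.17.

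Most GATC-rich sequence was in LADs in each of the 3 maps. LADs held 91.2% of the fragment length of GATC-rich bins after LmnA RNAi, against 64.1% in other bins. They held 87.6% against 54.3% after LmnC RNAi, and 88.5% against 55.2% after LmnB1 RNAi. The excess was 27.1 percentage points after LmnA RNAi (SD 5.39 over 19 autosomes), 33.3 after LmnC RNAi (SD 6.66) and 33.3 after LmnB1 RNAi (SD 5.22). These SDs are over chromosomes of a single map and are not a spread between replicates. The share was higher in GATC-rich bins on 19 of 19 autosomes in each map.

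**Figure D1:**
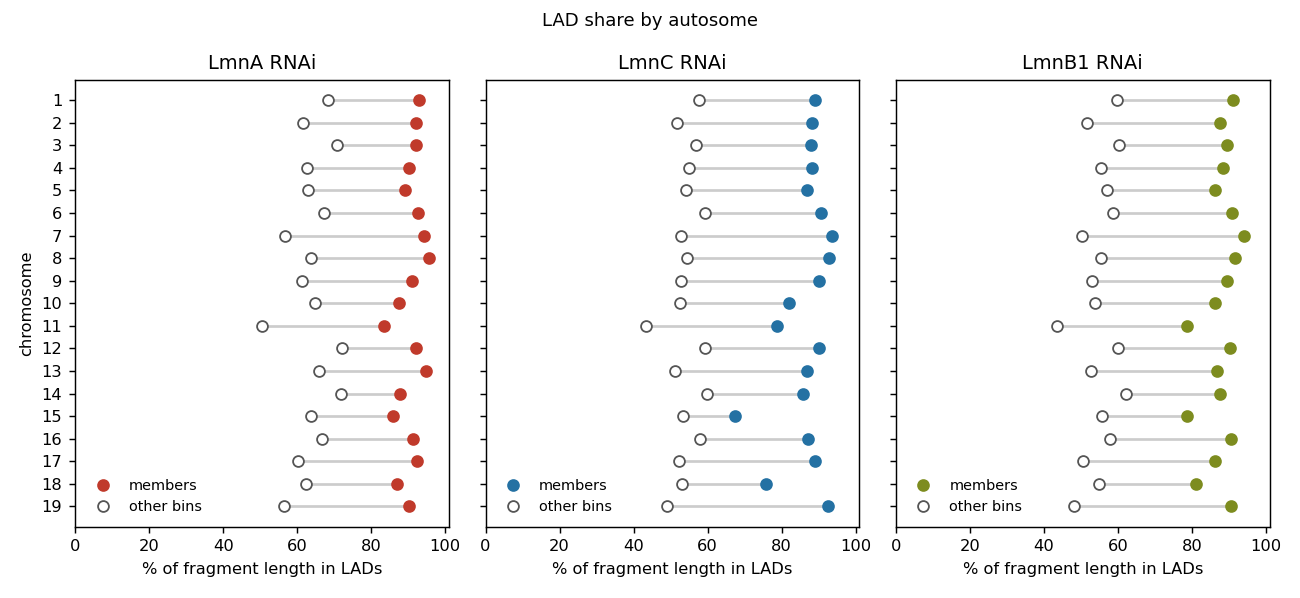
Percent of fragment length in LADs (x axis) on each autosome (y axis) in the 3 maps, for GATC-rich bins (filled) and other bins (open). The filled points lie right of the open ones on 19 of 19 autosomes in each map, with the smallest excess on chromosome 14 after LmnA RNAi (16.0 percentage points) and on chromosome 15 after LmnC RNAi (14.2).

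Chromosomes 11 and 15 had the lowest LAD shares of GATC-rich bins. They were 83.3% after LmnA RNAi and 78.7% after LmnB1 RNAi on chromosome 11, and 67.4% after LmnC RNAi on chromosome 15. The highest were 95.5% on chromosome 8 after LmnA RNAi, and 93.7% and 94.0% on chromosome 7 after LmnC and LmnB1 RNAi. In each map the lowest autosome for GATC-rich bins still lay above the highest autosome for other bins, which was 72.1% after LmnA RNAi, 59.9% with LmnC RNAi and 62.1% with LmnB1 RNAi.

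Most GATC-rich bins were in LADs throughout and in all maps. Of the 2413, 1856 (76.9%) lay wholly in LADs of all 3 maps, where 46.2% of all 23817 bins did. At the other end, 125 (5.18%) lay outside LADs in all maps, beside 25.3% of all bins. LAD membership that differed between maps was less frequent in GATC-rich bins. Sequence in LADs of 1 or 2 maps made up 7.70% of their fragment length, against 16.4% in other bins. GATC-rich bins with at least 90% of their length in LADs of the LmnA RNAi map and at most 10% in those of either other map numbered 31 (1.28%), beside 4.10% of all bins. The same count was 3 (0.124%) for the LmnC RNAi map, beside 0.189% of all bins, and 2 (0.0829%) for the LmnB1 RNAi map, beside 0.139%. These last counts are small and lie near the shares of all bins, so no difference is read from them. Seen from the LAD side, sequence in LADs of all maps held 259 fragments per 100 kb, against 241 in sequence in no LAD and 244 in LADs of 1 or 2 maps.

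The signal followed the LAD lists, which were deposited for the same maps, so signal and LAD share are not independent measures. A bin's log2 ratio is the mean over its fragments, weighted by length, of the deposited log2 of fusion over Dam-only reads. GATC-rich bins averaged 2.21 ± 1.39 after LmnA RNAi (SD over bins), against 0.49 ± 2.05 in other bins. They averaged 1.43 ± 1.55 against -0.51 ± 2.20 after LmnC RNAi, and 1.64 ± 1.28 against 0.04 ± 1.86 after LmnB1 RNAi. The difference was 1.73 after LmnA RNAi (SD 0.29 over autosomes), 1.94 after LmnC RNAi (SD 0.35) and 1.60 after LmnB1 RNAi (SD 0.29), with GATC-rich bins higher on 19 of 19 autosomes in each map. A ratio above 0 was found in 91.9%, 85.2% and 88.6% of GATC-rich bins in the same order of maps, against 62.1%, 46.7% and 53.0% of other bins.

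**Figure D2:**
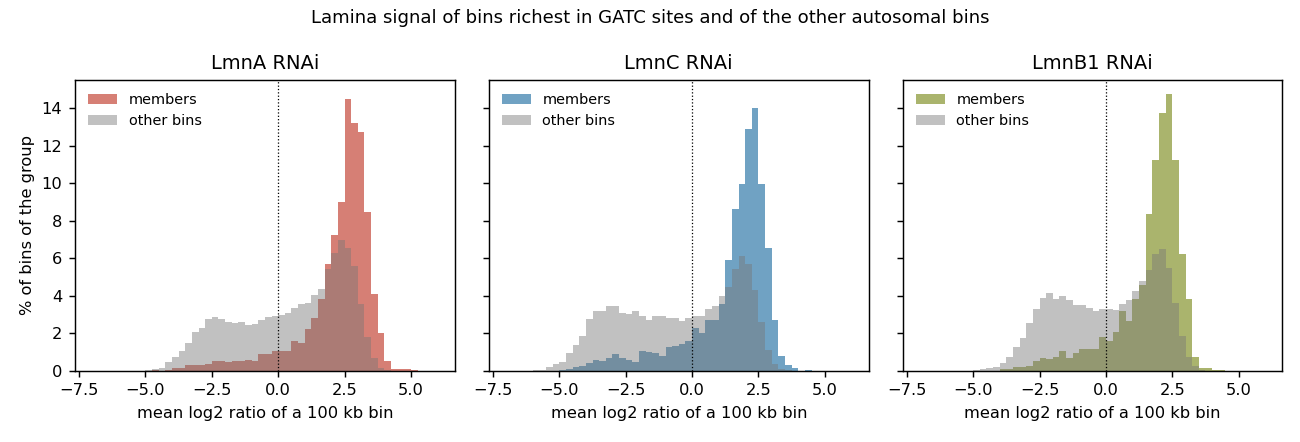
Histograms of the mean log2 ratio of 100 kb bins (x axis) as percent of the bins of each group (y axis), for GATC-rich bins (members, coloured) and other bins (grey) in the 3 maps. GATC-rich bins form 1 main peak around their medians of 2.62, 1.94 and 2.02 in the LmnA, LmnC and LmnB1 RNAi maps, where other bins spread over low and high values.

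A fragment with 0 reads in 1 library has a deposited value beyond 12 in size and weighs heavily in these means. Leaving such single-library fragments out, the difference kept its direction and was less than 1.0 in each map. GATC-rich bins then averaged 0.82 against 0.03 in other bins after LmnA RNAi, 0.60 against -0.28 after LmnC RNAi, and 0.51 against -0.12 after LmnB1 RNAi.

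Signal and LAD share were broadly higher at higher fragment counts. Bins were ranked into 10 classes of about equal size. In the class with the fewest fragments (162 to 218), LADs held 56.3% of a bin after LmnA RNAi, 43.7% with LmnC RNAi and 45.1% with LmnB1 RNAi. In class 5 (240 to 247 fragments) they held 60.9%, 51.2% and 51.9%, and in class 9 (270 to 284) 79.2%, 71.8% and 73.0%. In the GATC-rich bins they held 91.2%, 87.6% and 88.5%. The rise went on among the GATC-rich bins. The 898 bins with 285 to 294 fragments had LAD shares of 86.4%, 81.2% and 82.1%, and the 212 bins with 330 or more had 98.7%, 96.0% and 97.4%. Log2 ratios of these 212 bins averaged 2.86, 2.12 and 2.20. Over single GATC-rich bins the relation was weak, with a Pearson r between count and log2 ratio of 0.249, 0.244 and 0.232 (2413 bins, which share libraries and neighbours and are not replicates).

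**Figure D3:**
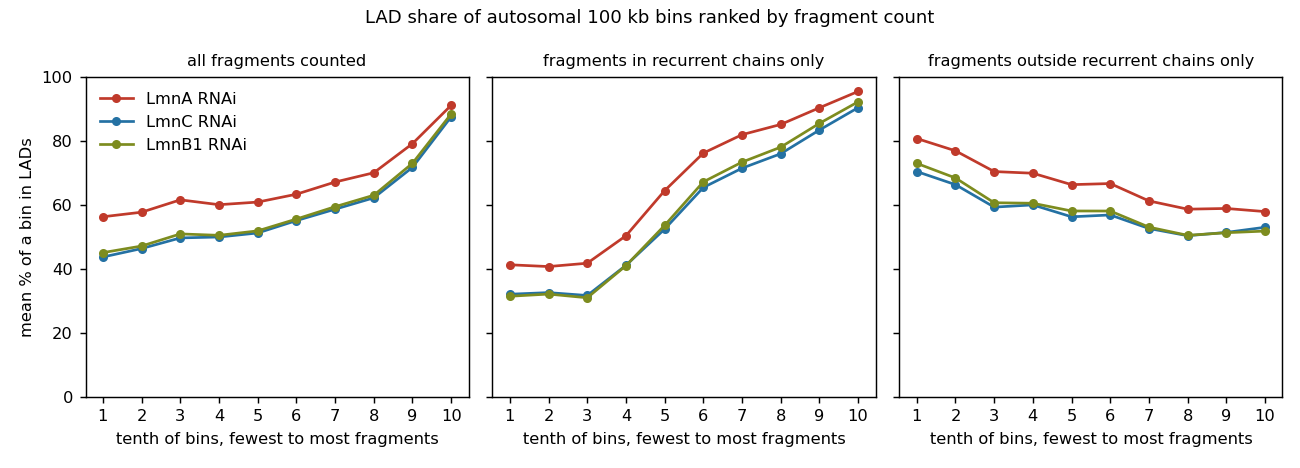
Mean percent of a bin in LADs (y axis) for autosomal bins ranked into 10 classes by fragment count (x axis, fewest to most), counting all fragments (left, where the last point is the GATC-rich bins), only fragments in recurrent chains (middle) or only fragments outside them (right). LAD share after LmnA RNAi is 95.5% in the class richest in recurrent fragments and 57.9% in the class richest in all other fragments. In the middle panel classes 1 to 3 all hold 0 recurrent fragments and are split by position alone.

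By count, with the cutoff of 100 occurrences, recurrent and other fragments ran in opposite directions. Ranked by recurrent fragments alone, the top class (55 to 171 fragments) had LAD shares of 95.5%, 90.5% and 92.3% in the LmnA, LmnC and LmnB1 RNAi maps. Bins with 0 recurrent fragments filled classes 1 to 3 and part of class 4, and such ties were ordered by position alone. Class 1 had 41.3%, 32.1% and 31.5%, class 2 40.7%, 32.6% and 32.1%, and class 3 41.8%, 31.7% and 31.0%. Ranked by fragments outside recurrent chains, the top class (258 to 419) had 57.9%, 53.0% and 51.8%, and the lowest (146 to 201) had 80.8%, 70.5% and 73.0%. Chains also take up length in a bin. When the other fragments were counted per length left outside chains, the richest 10% again had the higher LAD share, at 73.1% against 66.1% in the remaining bins after LmnA RNAi, 69.1% against 56.4% after LmnC RNAi and 69.1% against 57.4% after LmnB1 RNAi. The excess was then 7.04, 12.7 and 11.7 percentage points, less than for GATC-rich bins ranked by all fragments. This excess depended on how often a chain had to recur, and was 2.44, 7.63 and 6.64 with at least 30 occurrences and 13.8, 19.6 and 19.02 with at least 1000. The ranking by count depended on it in direction too. With at least 1000 occurrences the richest bins exceeded the remaining ones by 2.27, 7.49 and 6.08 percentage points, where at least 100 gave -10.1, -5.31 and -7.60 and at least 30 gave -16.8, -12.9 and -15.3.

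Within the GATC-rich bins, those with few recurrent fragments had the lower LAD share. The 604 bins with 0 to 36 recurrent fragments had LAD shares of 78.4%, 74.1% and 74.9% in the LmnA, LmnC and LmnB1 RNAi maps, and mean log2 ratios of 1.56, 0.79 and 0.98. The 580 bins with 78 to 171 had 97.8%, 94.2% and 95.9%, and 2.51, 1.73 and 1.97. Between them, bins with 37 to 56 and with 57 to 77 had LAD shares of 92.9% and 95.8% after LmnA RNAi, so the largest step was above the lowest group. Bins were chosen by total count, so few recurrent fragments went with more others. These others averaged 276 per bin in the lowest group and 218 in the highest. Total count was not held equal between the groups. Among GATC-rich bins it rose with the share of recurrent fragments (Pearson r 0.323), and LAD share rose with total count. With recurrent fragments left out of the means and the bins unchanged, the log2 ratio of GATC-rich bins exceeded that of other bins by 1.67, 1.88 and 1.52.

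Recurrent fragments more often sat at the constant of their map. In GATC-rich bins 49.1% of them held the constant of the LmnA RNAi map, the value of a fragment with no reads or equal reads in both libraries, against 29.1% of the other fragments there. After LmnC RNAi these shares were 50.1% and 29.1%, and after LmnB1 RNAi 51.7% and 31.2%. Over all their fragments, GATC-rich bins had 32.9% at the constant after LmnA RNAi, against 28.9% in other bins, 33.03% against 27.7% after LmnC RNAi, and 35.0% against 29.0% after LmnB1 RNAi. As shares of length these were 11.3% against 9.90%, 11.5% against 8.89%, and 12.8% against 10.3%. The part that unread fragments play in the signal of these bins was not tested.

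Reads found in a single library also leaned more to the fusion in GATC-rich bins than in other bins. After LmnA RNAi, 22.8% of their fragments were read in the fusion library alone and 5.48% in the Dam-only library alone, against 16.0% and 8.75% in other bins. After LmnC RNAi the shares were 19.04% and 7.21% in GATC-rich bins, against 11.98% and 12.8% in other bins. After LmnB1 RNAi they were 19.8% and 6.44%, against 13.2% and 10.9%. Over fragments read in a single library, recovered reads gave a ratio of fusion to Dam-only reads of 6.43 after LmnA RNAi, against 1.78 in other bins. The ratio was 2.82 against 0.569 after LmnC RNAi and 3.68 against 0.913 after LmnB1 RNAi. Other bins thus had more Dam-only than fusion reads of this kind after LmnC and LmnB1 RNAi. GATC-rich bins had more fusion reads in each map. These reads are not scaled for the depth of each library, which is unknown. Only the contrast between the groups of bins can therefore be read, not which library had more.

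The mean log2 ratio was higher in GATC-rich bins in each of 7 classes of fragment length. For fragments of 200 to 300 bp the mean log2 ratio was 5.29 in GATC-rich bins, against 1.95 in other bins, after LmnA RNAi. It was 3.88 against -0.52 after LmnC RNAi and 4.38 against 0.48 after LmnB1 RNAi. For fragments of 1000 bp and more it was 0.75 against 0.01, 0.21 against -0.57, and 0.42 against -0.13. With single-library fragments left out, fragments of 500 to 1000 bp had 1.07 against 0.10, 0.75 against -0.27, and 0.67 against -0.08. Fragments under 50 bp then differed by 0.01 in each map. Their means were -0.33 against -0.34, 0.22 against 0.21, and -0.15 against -0.16. These lay near the map constants of -0.34, 0.21 and -0.15, which fragments with no reads or equal reads hold. A difference in signal could therefore hardly show in this class.

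Bins near GATC-rich bins also had high LAD shares. Bins adjoining on the left had LAD shares of 87.3%, 82.9% and 83.8% in the LmnA, LmnC and LmnB1 RNAi maps, and those adjoining on the right 86.8%, 81.9% and 83.0%. At 2 Mb to the right the shares were 68.9%, 62.9% and 63.96%. Fragment counts, by which the bins were chosen, averaged 304 in GATC-rich bins, 274 and 273 in the adjoining bins and 263 at 500 kb to the left. Bins adjoining on the left that were not GATC-rich had LAD shares of 82.0%, 76.2% and 77.2%.

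**Figure D4:**
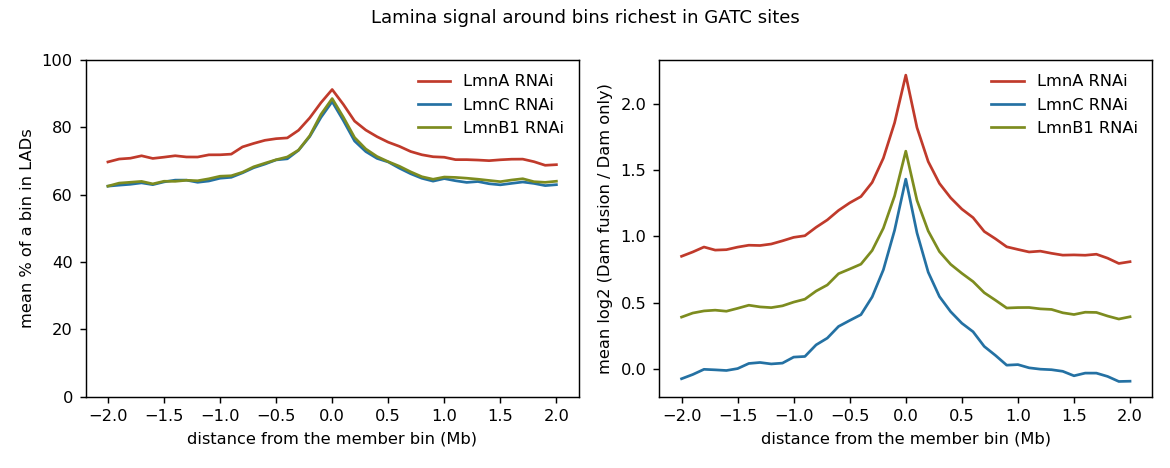
Mean percent of a bin in LADs (left) and mean log2 ratio (right) by distance in Mb from GATC-rich bins, which stand at 0, for the 3 maps. LAD share after LmnA RNAi peaks at 91.2% in the GATC-rich bins and is 68.9% at 2 Mb to the right.

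GATC-rich bins were spread over many LADs and seldom held a border. After LmnA RNAi 686 of the 1680 autosomal LADs held the centre of at least 1 GATC-rich bin, after LmnC RNAi 696 of 1699 and after LmnB1 RNAi 711 of 1644. A LAD border fell in 8.79% of GATC-rich bins after LmnA RNAi, against 13.7% of other bins, in 10.3% against 13.7% after LmnC RNAi, and in 10.2% against 12.8% after LmnB1 RNAi. The LADs that held GATC-rich bins were of similar size to those that held other bins. Their median length was 1932 kb against 1775 kb after LmnA RNAi, 1700 kb against 1502 kb after LmnC RNAi, and 1490 kb against 1513 kb after LmnB1 RNAi, each LAD counted once for every bin in it.

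Within bins of the same LAD class the difference in signal was smaller. A LAD list was deposited for each of these same maps, and how it was called is not given. A high ratio inside LADs is taken to be built in, and only bins of the same class are compared here. Among bins with at least 50% of their length in LADs of all maps, 2084 GATC-rich bins averaged 2.65 against 2.14 in 10758 other bins after LmnA RNAi, 1.92 against 1.35 after LmnC RNAi, and 2.04 against 1.61 after LmnB1 RNAi. With single-library fragments left out these were 1.03 against 0.92, 0.83 against 0.63, and 0.68 against 0.62. Such bins were 86.4% of GATC-rich bins, beside 53.9% of all bins.

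The 125 GATC-rich bins outside LADs in all maps were on all 19 autosomes. They held at most 320 fragments, and 8.22% of a bin's fragments were recurrent on average, against 19.9% in the 1856 GATC-rich bins wholly in LADs of all maps. In other bins the same shares were 2.07% outside LADs and 9.38% wholly in them. Their log2 ratios averaged -1.90, -2.84 and -1.84 after LmnA, LmnC and LmnB1 RNAi, against -2.10, -3.16 and -2.18 in other bins outside LADs. The 3 such bins with the most fragments, picked after their values were seen, included chromosome 2 from 52500001 to 52600000. That bin held 320 fragments, 31.3% of them recurrent, and had -1.86 ± 0.31, -2.34 ± 0.29 and -1.31 ± 0.24 (SE over fragments). Another, on chromosome 15 from 3800001 to 3900000 with 317 fragments, had 0.56 ± 0.28, -0.84 ± 0.30 and -0.10 ± 0.26. The remaining one was on chromosome 18 from 54400001 to 54500000, with 315 fragments and 0.02 ± 0.35, -1.96 ± 0.32 and -1.01 ± 0.31.

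Dam-LmnB1 served for the maps after LmnA RNAi and LmnC RNAi, so these differ in the product of Lmna that the shRNA targeted. As deposited, signal was higher after LmnA RNAi in most GATC-rich bins, by a median of 0.74 (interquartile range 0.38 to 1.13). This gap was smaller than in other bins, where it was 0.96. It exceeded 0.5 in 1610 of 2413 GATC-rich bins (66.7%), beside 75.9% of all bins, and was below -0.5 in 25 (1.04%), beside 0.794%. The median over all bins was 0.93, and the maps have different constants. Centring each map on its median bin left -0.41 in GATC-rich bins against -0.19 in other bins. The sign thus turned, and the gap was then the larger one in GATC-rich bins. After centring, 7.71% of GATC-rich bins were above 0.5 (15.6% of all bins) and 43.0% below -0.5 (32.4% of all bins). With single-library fragments left out the medians as deposited were 0.20 against 0.29, with 8.58% of GATC-rich bins above 0.5, beside 22.4% of all bins, and 2 bins below -0.5, beside 0.0756%. The median of LmnA minus LmnC RNAi was lower in GATC-rich bins on 17 of 19 autosomes, and the difference of medians ran from -0.37 to 0.01. In bins with at least 50% in LADs of all maps the medians were 0.70 against 0.78.

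**Figure D5:**
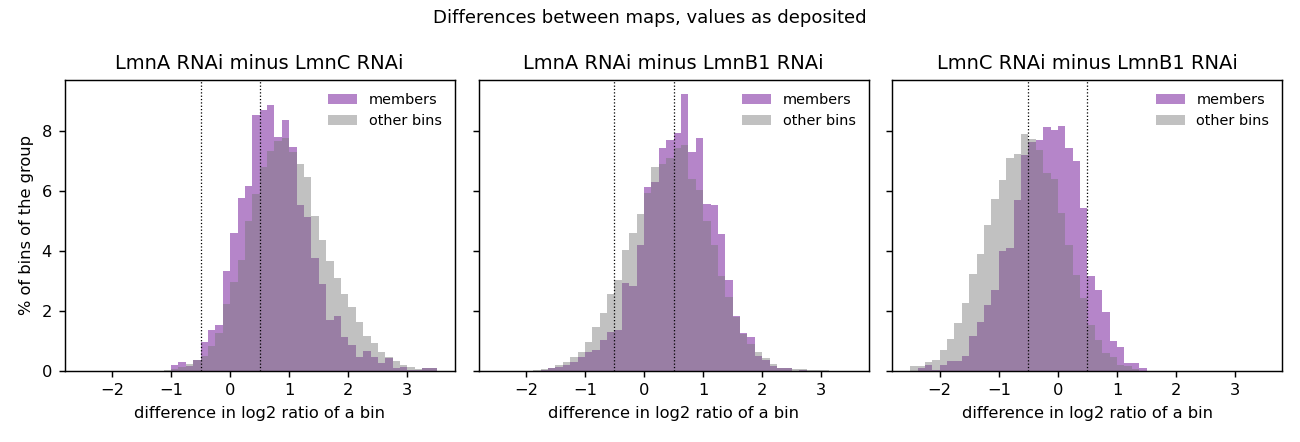
Differences in log2 ratio between 2 maps (x axis, as deposited) as percent of the bins of each group (y axis), for GATC-rich bins (members, purple) and other bins (grey), with dotted lines at -0.5 and 0.5. GATC-rich bins lie lower than other bins for LmnA minus LmnC RNAi (medians 0.74 and 0.96), and higher for LmnA minus LmnB1 RNAi (0.60 and 0.46) and LmnC minus LmnB1 RNAi (-0.18 and -0.54).

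Between the LmnA RNAi and LmnB1 RNAi maps, which differ in target and fusion, the median of LmnA minus LmnB1 RNAi was higher in GATC-rich bins than in other bins. The median difference was 0.60 in GATC-rich bins against 0.46 in other bins. Leaving out fragments with 0 reads in 1 library gave 0.34 against 0.16, with 23.1% of GATC-rich bins above 0.5, beside 16.6% of all bins, and 0.580% below -0.5, beside 2.56%. As deposited the difference exceeded 0.5 in 1358 GATC-rich bins (56.3%), beside 48.6% of all bins, and was below -0.5 in 117 (4.85%), beside 8.25%. Centred medians were -0.08 in GATC-rich bins against -0.22 in other bins, so the gap was then the smaller one in GATC-rich bins and its sign turned. After centring the shares past 0.5 and -0.5 were 16.0%, beside 13.7%, and 24.7%, beside 33.4%. The median was higher in GATC-rich bins on 16 of 19 autosomes. As deposited it was 0.63 against 0.55 in bins with at least 50% in LADs of all maps, and 0.07 against 0.11 in bins with under 50% in LADs of each map. With each fragment weighted equally in place of by its length, the difference between the groups of bins turned to -0.13.

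The LmnC RNAi and LmnB1 RNAi maps, which also differ in target and fusion, had a higher median of LmnC minus LmnB1 RNAi in GATC-rich bins than in other bins. As deposited it was -0.18 there, against -0.54 in other bins, and it was higher in GATC-rich bins on 19 of 19 autosomes. Only 30.3% of GATC-rich bins were below -0.5, beside 50.5% of all bins, and 10.2% were above 0.5, beside 4.66%. Centred, the sign turned, and the median was 0.29 in GATC-rich bins against -0.08 in other bins. Then 10.1% were below -0.5, beside 24.4% of all bins, and 35.5% above 0.5, beside 19.4%. With single-library fragments left out the sign turned, and the median was 0.13 in GATC-rich bins against -0.18 in other bins. Then 1.91% of GATC-rich bins were above 0.5, beside 0.579% of all bins, and 1.66% below -0.5, beside 10.4%. As deposited, by LAD class, the shift was smaller or turned, at -0.10 in GATC-rich bins against -0.25 in other bins with at least 50% in LADs of all maps, and -0.98 against -0.95 in bins with under 50% in LADs of each map. These 3 comparisons share maps with each other and are not independent.

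Along the GATC-rich bins the maps ran in parallel, with a Pearson r of 0.918 between the LmnA and LmnC RNAi maps, 0.897 between LmnA and LmnB1 RNAi and 0.931 between LmnC and LmnB1 RNAi. In other bins these were 0.952, 0.944 and 0.967, over a wider range of signal. By rank the gap was larger. Spearman correlations were 0.799, 0.719 and 0.790 in GATC-rich bins, against 0.950, 0.936 and 0.960 in other bins. Odd-numbered against even-numbered fragments of a GATC-rich bin gave r = 0.886, 0.921 and 0.890 within the LmnA, LmnC and LmnB1 RNAi maps. Spearman correlations of this split were 0.699, 0.772 and 0.734, against 0.942, 0.958 and 0.952 in other bins. The SD of a bin's log2 ratio from this split was 0.34, 0.32 and 0.31 in GATC-rich bins, against 0.31, 0.31 and 0.28 in other bins.

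Single bins show the range. The bin with the most fragments lay on chromosome 3 from 93000001 to 93100000 and held 422, of which 0.711% were recurrent. The LmnA RNAi map gave it 3.20 ± 0.35, the LmnC RNAi map 3.19 ± 0.33 and the LmnB1 RNAi map 2.71 ± 0.31 (log2 ratio, SE over fragments). Next came chromosome 2 from 10400001 to 10500000 with 399 fragments, of which 10.5% were recurrent. It had 4.75 ± 0.44, 4.33 ± 0.39 and 3.84 ± 0.44, the highest value of any GATC-rich bin after LmnC RNAi. On chromosome 4 from 143100001 to 143200000, 392 fragments gave 4.30 ± 0.42, 2.95 ± 0.36 and 2.63 ± 0.39. These 3 bins are also those with the most fragments among bins wholly in LADs of all maps.

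On chromosome 5 from 93800001 to 93900000, 387 fragments gave 3.18 ± 0.34, 2.66 ± 0.28 and 2.81 ± 0.36 after LmnA, LmnC and LmnB1 RNAi. On chromosome 19 from 39200001 to 39300000, 382 fragments gave 3.01 ± 0.35, 1.78 ± 0.34 and 2.67 ± 0.35. Both lay wholly in LADs of all maps, and 32.3% and 39.5% of their fragments were recurrent.

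The 2 highest ratios after LmnA RNAi stood on chromosome 2. From 176600001 to 176700000 the value was 5.06 ± 0.50, against 2.85 ± 0.40 after LmnC RNAi and 2.84 ± 0.38 with LmnB1 RNAi, and from 176100001 to 176200000 it was 4.78 ± 0.56, against 3.33 ± 0.45 and 2.76 ± 0.46. With single-library fragments left out the first had 1.74, 1.65 and 1.14. After LmnC RNAi the second highest was chromosome 5 from 146600001 to 146700000, with 3.80 ± 0.36. After LmnB1 RNAi the highest were chromosome 3 from 110600001 to 110700000, with 4.35 ± 0.43, and chromosome 4 from 73500001 to 73600000, with 4.22 ± 0.41.

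The lowest ratios lay outside LADs in all maps. On chromosome 11 from 68800001 to 68900000, 297 fragments, none of them recurrent, gave -4.50 ± 0.42, -3.87 ± 0.35 and -3.31 ± 0.34 after LmnA, LmnC and LmnB1 RNAi. On chromosome 18 from 37900001 to 38000000, 308 fragments gave -4.09 ± 0.41, -4.42 ± 0.44 and -3.55 ± 0.39. Chromosome 4 from 63700001 to 63800000 had the lowest value after LmnC RNAi, at -4.86 ± 0.40, and after LmnB1 RNAi, at -3.97 ± 0.39, with -3.93 ± 0.34 after LmnA RNAi. The next lowest were chromosome 5 from 125700001 to 125800000 after LmnC RNAi (-4.59 ± 0.44) and chromosome 11 from 78000001 to 78100000 after LmnB1 RNAi (-3.80 ± 0.37).

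The largest differences between maps fell in a few places. On chromosome 13 from 90500001 to 90600000 the values were 1.77 ± 0.35, -2.06 ± 0.42 and 0.20 ± 0.31 after LmnA, LmnC and LmnB1 RNAi, and the bin was in a LAD after LmnA RNAi alone. It holds the largest excess of LmnA over LmnC RNAi (3.84, and 0.87 with single-library fragments left out) and the largest deficit of LmnC against LmnB1 RNAi (-2.26, and -0.39 without them). On chromosome 15 from 32900001 to 33000000 the values were 0.15 ± 0.31, -3.39 ± 0.37 and -2.58 ± 0.35, again in a LAD after LmnA RNAi alone. That bin holds the largest excess of LmnA over LmnB1 RNAi (2.73, and 0.84 without such fragments).

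Its neighbourhood recurs among bins in LADs of exactly 1 map. Of the 36 such GATC-rich bins, the 2 with the most fragments lay on chromosome 15, from 33700001 to 33800000 with 349 fragments and from 33100001 to 33200000 with 344. The first had 1.93 ± 0.36 after LmnA RNAi, against -0.56 ± 0.33 after LmnC RNAi and -0.16 ± 0.33 with LmnB1 RNAi. The second had 1.39 ± 0.37, against -1.52 ± 0.32 and -0.94 ± 0.31. The next, on chromosome 11 from 94600001 to 94700000, had 341 fragments, none of them recurrent, and was in a LAD after LmnA RNAi with a ratio of -0.13 ± 0.31, against -2.04 ± 0.40 and -1.25 ± 0.36.

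Other large differences lay in bins that were in LADs of all maps. The second largest excess of LmnA over LmnB1 RNAi was on chromosome 9 from 95100001 to 95200000, with 2.20 ± 0.33 against -0.23 ± 0.31, a gap of 2.43 that was 0.72 with single-library fragments left out. The largest deficits of LmnA against LmnC RNAi were on chromosome 12 from 115200001 to 115300000 (2.10 ± 0.40 against 3.06 ± 0.38) and chromosome 10 from 49900001 to 50000000 (2.82 ± 0.44 against 3.78 ± 0.39). With single-library fragments left out these became 0.90 against 1.06, and 1.40 against 1.41. The largest deficits of LmnA against LmnB1 RNAi were on chromosome 2 from 86700001 to 86800000 (1.87 ± 0.38 against 3.57 ± 0.39) and chromosome 9 from 19100001 to 19200000 (1.62 ± 0.45 against 3.19 ± 0.41), and 1.02 against 1.05 and 0.68 against 0.97 once such fragments were dropped. The largest excesses of LmnC over LmnB1 RNAi were on chromosome 7 from 33900001 to 34000000 (2.58 ± 0.36 against 1.15 ± 0.30) and chromosome 5 from 121300001 to 121400000 (1.64 ± 0.29 against 0.26 ± 0.28). These excesses of 1.42 and 1.38 became 0.13 and 0.52 with single-library fragments left out. Outside LADs in all maps, chromosome 12 from 16100001 to 16200000 had the second largest deficit of LmnC against LmnB1 RNAi (-4.26 ± 0.38 against -2.004 ± 0.30), which was -2.25 and became -0.54 with single-library fragments left out.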

How the data were processed

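DamID was measured in 3 maps of MEFs, each from 1 fusion and 1 Dam-only library. The submitters' processing notes list Bowtie (no version) and the mm9 build. How LADs were called and ratios made is not given in the sources used here. Each GATC fragment has a deposited log2 value. Its steps show fusion over Dam-only reads, 1e-05 having been added to each, shifted by a map-specific constant (-0.34, 0.21 and -0.15 after LmnA, LmnC and LmnB1 RNAi). The deposited LAD lists give starts and ends in bp, and coordinates are printed in mm9 as bin edges counted from 1.

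Fragments of chromosomes 1 to 19 (those of X are given apart) were assigned by midpoint to 100 kb bins. Bin signal is the mean of fragments weighted by length, and its SE is that of this weighted mean over fragments. LAD share is the share of fragment length whose midpoint lies in a LAD, or the mean of that share over bins. Values beyond 12 in size were read as 0 reads in 1 library. In such fragments reads were recovered by inverting the log2. Neighbouring fragments are listed 3 bp apart. Total reads per library, and so depth, are unknown. Their median was 1 or 2 reads, so only means over many fragments are used. Bins and fragments are not replicates, and an SE or SD over them covers variation within 1 pair of libraries. Functions were tested on simulated fragments. Long chains were built from the most common run of 3 lengths by adding the commonest neighbour while at least 0.5 of its occurrences were kept.

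Single bins were named by rank of fragment count, signal, difference between maps, run length and LAD membership, as the text states. The bins, lists and settings were chosen with earlier results of these data known. Alternatives were the fragment filter, weighting, share taken, bin size, cover, fragment length, centring and recurrent chains. Genes and sequences of bins are not given, because no mm9 annotation or sequence was used here. The analysis used Python 3.11.15, numpy 2.4.6 and pandas 2.3.3.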

Additional observations from a re-analysis of the deposited data

Results flagged for a closer look

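Chromosome X was outside the choice of bins and showed the same pattern. Of its 1596 bins with at least 90% cover, 449 (28.1%) held 285 or more fragments, where 10.1% of autosomal bins did. LADs held 97.8% of these X bins after LmnA RNAi, against 77.1% of the 1147 X bins with fewer fragments. After LmnC RNAi the shares were 95.3% and 67.6%, and after LmnB1 RNAi 96.4% and 70.1%. Mean log2 ratios were 2.61 against 1.13 after LmnA RNAi, 1.59 against -0.26 after LmnC RNAi and 2.07 against 0.68 after LmnB1 RNAi. These values were singled out because they lie in data that the comparisons above do not use. No group holds 4 or more samples, so no sample could be set against the spread of its group.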

How the results depend on the processing

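The excess of GATC-rich over other bins kept its direction in log2 ratio and LAD share in all maps, except where bins were ranked by count without recurrent chains. Log2 excess after LmnA, LmnC and LmnB1 RNAi was 0.784, 0.886 and 0.624 without fragments with 0 reads in 1 library, and 2.15, 2.75 and 2.30 with fragments weighted equally. Taking the top 20% gave 1.38 after LmnA RNAi, 1.57 after LmnC RNAi and a LAD excess of 27.6 percentage points after LmnB1 RNAi. Rankings without recurrent chains were added after seeing the data. By count the excess turned to -0.328, -0.180 and -0.306 in log2 ratio and -10.1, -5.31 and -7.60 points in LAD share. By density it was 0.659, 0.853 and 0.610, and 7.03, 12.7 and 11.7 points. The first ranking also removes length from bins with chains. Other alternatives moved these values by less than the SD over autosomes.

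The gap between maps in GATC-rich minus other bins was -0.0907 for LmnA minus LmnC RNAi without single-library fragments. Equal weights gave -0.595 for that pair, -0.127 for LmnA minus LmnB1 RNAi (0.143 in the main setting, so reversed) and 0.507 for LmnC minus LmnB1 RNAi. The share of GATC-rich bins past 0.5 depended on the setting. Without single-library fragments the shares above 0.5 and below -0.5 were 8.58% and 0.0829% for LmnA minus LmnC RNAi, 23.1% and 0.580% for LmnA minus LmnB1 RNAi, and 1.91% and 1.66% for LmnC minus LmnB1 RNAi. Centred maps gave 7.71% and 43.0%, 16.0% and 24.7%, and 35.5% and 10.1%. Equal weights gave 8.70% below -0.5 for the first pair, 8.58% for the second, and 30.5% above 0.5 for the third. Bins of 50 kb gave 4.16% and 9.34% below -0.5 for the first and second pair, bins of 200 kb 0.251% and 2.09% (and 5.19% above 0.5 for the third), and fragments of 200 to 1000 bp 2.11% and 8.04%. The cause was not tested. As deposited, few GATC-rich bins passed -0.5 in the first 2 pairs (1.04% and 4.85%). Sampling error was not measured for bins of 50 kb and 200 kb. No paired analysis was possible because each RNAi has 1 map and no replicate.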
